A study of Mus musculus with 4 samples.

Results

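Motor neuron disease genes, those whose mutation causes or predisposes to amyotrophic lateral sclerosis or spinal muscular atrophy in people, were followed in mouse embryonic stem cells that had been differentiated towards motor neurons. The 8 genes considered were Sod1, Tardbp, Smn1, Vcp, Chmp2b, Pfn1, Atxn2 and Ubqln2. The members were the rows of the deposited table whose gene symbol is one of these, and 7 of 11747 rows met that rule. Smn1 has no symbol in the table. Its row was found by RefSeq accession and is described beside the 7 but not counted with them. All cells came from the A172LoxP stem cell line and carried a transgene, switched on by doxycycline, that encodes a transcription factor. In all 4 libraries the cells had grown as embryoid bodies, which are free-floating clumps, and had been patterned over 2 days. The patterning agents were retinoic acid at 0.5 µM and purmorphamine, which activates Sonic hedgehog signalling, at 1 µM. The embryoid bodies then received 2 µg/mL doxycycline (libraries 2 and 8) or vehicle (libraries 1 and 7) for a further 2 to 3 days. Libraries are called by the numbers of their columns, and each group held 2. The values are the authors' normalized read counts, which correspond to an estimated 22434755 to 30235763 reads per library. Nothing in the labels says whether libraries 1 and 7, or 2 and 8, were grown as separate cultures, so p-values rest on a spread that may be technical alone.

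The disease genes encode proteins of a few shared cell functions. Vcp, Ubqln2 and Chmp2b belong to protein and membrane quality control, Tardbp, Atxn2 and Smn1 to RNA handling, Sod1 to the removal of superoxide and Pfn1 to the actin skeleton. Most cell types express them, although motor neurons are the cells that degenerate in patients.

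None of the 7 members passed the test for a change with doxycycline (limma, moderated test on log2 of the normalized count plus 1, with Benjamini-Hochberg adjustment over all rows, threshold 0.05). Over all rows 2.37% passed, so a count of 0 among 7 does not set the members apart. By direction, 0.579% of all rows rose and 1.79% fell. At an unadjusted p under 0.05, 1 member, Vcp, differed, where 21.1% of all rows did. The log2 changes of the 7 ran from -0.16 for Vcp to 0.23 for Chmp2b, with a median of -0.02 and a median size of 0.06, against a median of 0.00 and a median size of 0.13 over all rows. The groups did not overlap in 4 of the 7 members, a share close to the 53.2% of all rows for which this held. Of those 4, doxycycline libraries were the higher in Tardbp, Chmp2b and Atxn2 (26.7% of all rows) and the lower in Vcp (26.5% of all rows). When the column numbers were entered as a block (1 with 2, 7 with 8), which the labels do not give as a pairing, Vcp and Chmp2b passed, and so did 29.9% of all rows (limma). The 95% intervals of the changes of all 7 lay within 0.5 of 0 on the log2 scale, a width chosen after the values were seen, as did those of 66.5% of all rows. Most members were abundant. By mean level over all rows Chmp2b stood at percentile 45.0 and the others of the 7 at 86.8 to 99.2. The rows compared with them were not matched for level, so smaller changes and narrower intervals do not set the members apart. A missed threshold does not show that levels were equal, and the interval given for each gene is what these libraries allow.

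The same libraries differed in genes of motor neurons. Of the 7 listed motor neuron markers 6 fell with doxycycline (1.79% of all rows did). Lhx3 did not pass (0.55 ± 0.17; limma, adjusted p = 0.155), and Slc5a7 was not listed. Their median log2 change was -1.63. Slc18a3, the vesicular acetylcholine transporter, stood at 2974 and 2866 normalized counts in libraries 1 and 7 and at 982 and 899.7 in libraries 2 and 8. The markers' summed level was 10884 to 11135 without and 4182 to 4916 with doxycycline. In these bulk samples fewer motor neurons and less of each RNA per motor neuron cannot be told apart. Of 10 pan-neuronal markers 7 fell (1.79% of all rows did), and their sum was 128594 to 145405 without and 58703 to 73824 with doxycycline. Without library 8 the calls of Elavl3, Elavl4, Dcx and Snap25 among these, and of Chat among the motor neuron markers, were lost. Dcx and Snap25 were also lost without library 1, and Elavl3 and Snap25 without library 2. None of the 8 progenitor markers passed (limma, 4 at an unadjusted p under 0.05, against 21.1% of all rows). Values were above 0 in 7 of these markers (5944 of 11747 over all rows), among them Sox1 (0.50 ± 0.10) and Sox3 (0.66 ± 0.16). Their sums were 33275 to 34400.3 without and 34216 to 38656 with doxycycline. Most of each sum was Vim, at 19928 and 20477 without and 18969 and 21996 with doxycycline (0.02 ± 0.08). The groups did not overlap in 6 of the 8 (53.2% of all rows). Doxycycline libraries were the higher in 5 (26.7% of all rows) and the lower in 1, Nes (26.5% of all rows). The part of these marker differences in the values of the disease genes was not tested. Of other markers, 1 of 5 listed glial genes rose, where 0.579% of all rows did. It was Slc1a3, which was not called when any single library was left out. The glial values were mixed in sign, 3 above 0 and 2 below. Those below were Mbp (-0.51 ± 0.10; limma, adjusted p = 0.0679) and Pdgfra (-0.45 ± 0.42; limma, adjusted p = 0.591). None of 6 endoderm and mesoderm or 5 pluripotency genes passed. The groups did not overlap in 2 of the 6, Col1a1 (0.31 ± 0.11) and Col1a2 (0.87 ± 0.28), both higher with doxycycline (26.7% of all rows). The astrocyte markers Gfap and Aqp4 and the endoderm markers Afp and Ttr were not listed.

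**Figure D1:**
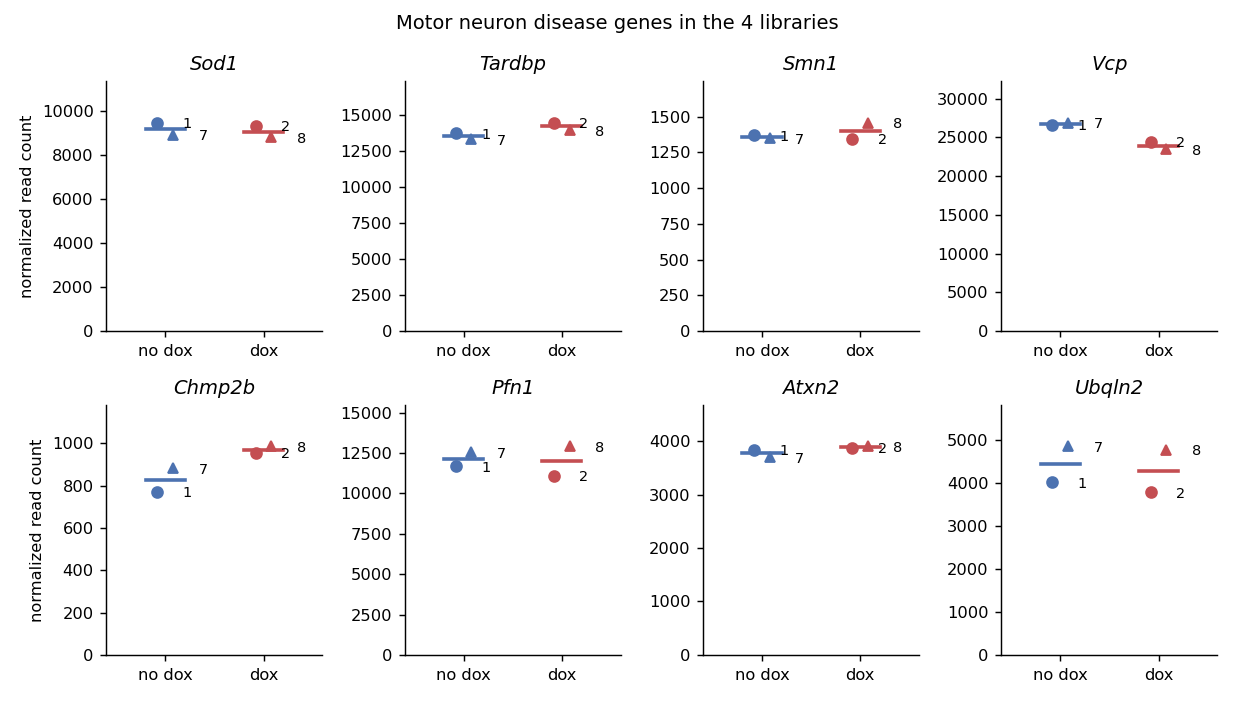
Normalized read counts of the 8 disease genes (vertical axes, from 0) in the 4 libraries, without (blue) and with (red) doxycycline. Points are single libraries with their column numbers, circles for 1 and 2 and triangles for 7 and 8, and bars are group means. Both doxycycline libraries of Vcp, at 24402 and 23482, lie below both others, while in Ubqln2 libraries 7 and 8 lie above 1 and 2.

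Vcp encodes p97, the ATPase that pulls ubiquitylated proteins out of membranes and complexes. It was the most abundant member in reads, with 26617 and 26884 normalized counts without doxycycline (libraries 1 and 7) against 24402 and 23482 with it (libraries 2 and 8). Both doxycycline libraries were thus lower than both others, and the gap between the groups was wider than the gap inside either. The means were 26751 ± 189 without and 23942 ± 651 with doxycycline (SD, n = 2 each). The log2 change was -0.16 ± 0.05 (SE), a fold of 0.89 with a 95% interval of 0.82 to 0.98, and it did not pass (limma, unadjusted p = 0.0262, adjusted p = 0.178). Within the pairs of neighbouring column numbers the difference was -0.13 between libraries 2 and 1 and -0.20 between 8 and 7.

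Vcp and Chmp2b, described next, had the smallest p-values among the members and lay on opposite sides of 0, and Sod1 had groups that overlapped. The 250 bases before their annotated starts are shown here for comparison, from RefSeq's table on GRCm38.p6, a build later than the mm9 named by the submitters. Vcp is given at chr4:43000508-43000757 on the minus strand, Chmp2b at chr16:65562763-65563012 on the minus strand and Sod1 at chr16:90220512-90220761 on the plus strand, each read 5′ to 3′ along the gene. Capitals mark matches, on either strand, to the letters CCAAT, known as the binding element of the factor NF-Y, to the letters TATAAA, a core promoter element, and to the letters GGGCGG, an element bound by Sp factors. Matches may overlap.
Vcp: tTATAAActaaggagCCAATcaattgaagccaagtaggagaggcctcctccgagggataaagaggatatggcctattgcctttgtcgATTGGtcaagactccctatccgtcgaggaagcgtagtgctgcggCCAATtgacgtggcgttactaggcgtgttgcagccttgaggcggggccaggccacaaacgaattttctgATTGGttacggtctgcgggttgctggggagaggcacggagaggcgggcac
Chmp2b: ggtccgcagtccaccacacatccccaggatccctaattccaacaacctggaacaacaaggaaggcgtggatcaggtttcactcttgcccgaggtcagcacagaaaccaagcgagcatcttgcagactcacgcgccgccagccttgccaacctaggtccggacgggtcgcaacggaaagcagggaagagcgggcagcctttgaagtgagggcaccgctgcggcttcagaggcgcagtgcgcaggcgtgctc
Sod1: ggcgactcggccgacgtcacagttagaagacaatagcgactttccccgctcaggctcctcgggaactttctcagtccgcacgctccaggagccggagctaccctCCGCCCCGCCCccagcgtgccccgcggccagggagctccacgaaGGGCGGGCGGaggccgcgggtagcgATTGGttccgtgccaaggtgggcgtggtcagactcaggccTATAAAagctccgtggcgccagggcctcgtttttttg
The Vcp window held 4 matches to CCAAT, beginning 235, 163, 119 and 50 bases before the start, and 0.84% of all 32851 windows of that length held 4 or more. It also held TATAAA at its far end, 249 bases before the start. The Sod1 window held TATAAA 37 bases before the start, 1 match to CCAAT 77 bases before it and 4 partly overlapping matches to GGGCGG, where 4.09% of all windows held 4 or more. Shares of all windows with at least 1 match were 33.8% for CCAAT, 12.4% for TATAAA and 32.7% for GGGCGG. No match to any of these was in the Chmp2b window. The letters CCGGAAGT, a site of ETS factors, and the endoplasmic reticulum stress element (ERSE) were also searched on both strands, matched none of the 3 windows and were in 2.9% and 0.1% of all windows. GC content was 54.8% for Vcp, 61.2% for Chmp2b and 66.4% for Sod1, against a median of 52.4% over all windows. The ratio of observed to expected CpG was 0.84 for Vcp, 0.73 for Chmp2b and 0.94 for Sod1, against a median of 0.37. Matches are descriptions of letters in these windows and not of binding.

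Genes that work with Vcp were measured too. Of 23 cofactors and partners in protein degradation, all listed, none passed the test (limma). An unadjusted p under 0.05 was found in 5 (limma), against 21.1% of all rows. Values were below 0 in 16 of them (5803 of 11747 over all rows), and the median was -0.03. Nploc4, which with Ufd1l forms the adaptor that brings ubiquitylated proteins to p97, had a value of -0.21 ± 0.06 (limma, adjusted p = 0.149). Syvn1, a ubiquitin ligase of the endoplasmic reticulum, had the smallest p of these genes, at 3119 and 3115 without and 2168 and 2561 with doxycycline (limma, adjusted p = 0.0924). The partners did not all lie on the side of Vcp. Svip, a small protein that inhibits Vcp, stood at 269 and 225 without and 407 and 321 with doxycycline (0.55 ± 0.17; limma, adjusted p = 0.154). Of the other ATPases of this type, Nsf, which takes apart membrane fusion complexes, had a value of -0.21 ± 0.07 and Nvl, a nucleolar one, a value of 0.10 ± 0.07. Neither passed (limma, adjusted p = 0.156 and 0.433).

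Chmp2b encodes a subunit of ESCRT-III, the filament that cuts membrane necks inside endosomes. It had the lowest read number of the members, an estimated 809 to 1117 reads per library, for which counting error alone gives a coefficient of variation of up to 3.52%. Its normalized counts were 772 and 882 without doxycycline (libraries 1 and 7) against 954 and 985 with it. Both doxycycline libraries were higher, and library 1 was the lowest of the 4. The means were 827 ± 77.3 and 969.5 ± 22.3 (SD, n = 2 each), and the log2 change was 0.23 ± 0.10, a fold of 1.17 with a 95% interval of 0.99 to 1.39 (limma, unadjusted p = 0.056, adjusted p = 0.251). The difference was 0.30 between libraries 2 and 1 and 0.16 between 8 and 7. Without library 1, the change was 0.14. Most other ESCRT genes had values of the opposite sign. Of 14 listed, none passed (limma, 3 at an unadjusted p under 0.05, against 21.1% of all rows). Values were below 0 in 10 of them (5803 of 11747 over all rows), and the median was -0.07. Chmp2a, its closest relative, stood at 1672 and 1717 without and 1717 and 1757 with doxycycline, a change of 0.04 ± 0.07. Vps4a, the ATPase that takes ESCRT-III filaments apart, had a value of -0.25 ± 0.08 (limma, adjusted p = 0.159) and Chmp7, a nuclear envelope subunit, one of -0.20 ± 0.08 (limma, adjusted p = 0.216).

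Ubqln2 encodes a ubiquilin, a shuttle that carries ubiquitylated proteins to the proteasome. Its counts were 4017 and 4848 without doxycycline (libraries 1 and 7) against 3782 and 4766 with it. The groups overlapped, and the split ran instead between the column numbers, with libraries 7 and 8 above 1 and 2. The means were 4432 ± 587 and 4274 ± 696 (SD, n = 2 each). Its log2 change of -0.06 ± 0.14 had the widest interval of the members, -0.40 to 0.29 (limma, adjusted p = 0.863). By column number the difference was 0.30, higher in 7 and 8. The relatives Ubqln1 (5148 and 5126 without, 4866 and 5142 with doxycycline) and Ubqln4 (4169.9 and 4249 without, 4017 and 4088 with) were not split in this way. Their differences by column number were 0.04 and 0.03. None of 12 listed shuttles, receptors and partners passed (limma), and their median was -0.07. Only 1 had an unadjusted p under 0.05 (limma, 21.1% of all rows did), the proteasome receptor gene Adrm1 at -0.19 ± 0.07. Bag6, a chaperone of mislocalized proteins, had a value of -0.14 ± 0.06 (limma, adjusted p = 0.256).

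Tardbp encodes TDP-43, the nuclear RNA-binding protein that forms inclusions in most cases of amyotrophic lateral sclerosis. It stood at 13708 and 13272 normalized counts in libraries 1 and 7 and at 14432 and 13914 in libraries 2 and 8. The doxycycline libraries were the higher ones, but library 8 exceeded library 1 by less than the libraries of either group differed. The means were 13490.0 ± 308 and 14173 ± 366 (SD, n = 2 each), with a log2 change of 0.07 ± 0.06 and a 95% interval for the fold of 0.95 to 1.16 (limma, adjusted p = 0.526). The difference was 0.07 inside both pairs of neighbouring numbers. Its row joins several RefSeq transcripts, so isoforms, by which TDP-43 regulates its own RNA, were not resolved. Of 13 listed RNA-binding proteins of the same kind or of stress granules none passed (limma), with a median of 0.04. Only 1 of these had an unadjusted p under 0.05 (limma, 21.1% of all rows did). G3bp1 and G3bp2, paired scaffold proteins of stress granules, had values of opposite sign, 0.22 ± 0.06 and -0.19 ± 0.08 (limma, adjusted p = 0.122 and 0.273).

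Atxn2 encodes ataxin-2, an RNA-binding protein with a polyglutamine tract whose moderate expansion raises the risk of amyotrophic lateral sclerosis. Its counts were 3842 and 3699 without and 3878 and 3902 with doxycycline. Libraries 1 and 2 were nearly level, and library 7 was the lowest. The means were 3770.4 ± 101 and 3889.9 ± 17.5 (SD, n = 2 each), and the log2 change was 0.05 ± 0.06, with an interval for the fold of 0.93 to 1.15 (limma, adjusted p = 0.725). Its relative Atxn2l had a value of the opposite sign, -0.15 ± 0.08, from 9507 and 8619.7 to 7778 and 8575 (limma, adjusted p = 0.352). Of 9 partners in poly(A) binding and P-bodies none passed (limma, 0 at an unadjusted p under 0.05, against 21.1% of all rows). The poly(A)-binding protein gene Pabpc1 (0.24 ± 0.10) and the P-body gene Lsm14a (0.14 ± 0.06) had the smallest p-values.

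Smn1 encodes SMN, the protein that loads rings of Sm proteins onto spliceosomal RNAs and whose loss causes spinal muscular atrophy. The row with its accessions stood at 1369 and 1349 in libraries 1 and 7 and at 1345 and 1458 in libraries 2 and 8. Library 8 alone was higher than the other 3, and the groups overlapped. The means were 1359 ± 14.5 and 1402 ± 79.8 (SD, n = 2 each), and the log2 change was 0.04 ± 0.08, with an interval for the fold of 0.90 to 1.18 (limma, adjusted p = 0.80). Of 19 genes of the SMN complex and Sm ring none passed (limma). An unadjusted p under 0.05 was found in 2 (limma), against 21.1% of all rows. Values were above 0 in 14 of them (5944 of 11747 over all rows), and the median was 0.10. Gemin5, which recognises the spliceosomal RNAs, stood at 2063 and 2104 without and 2437 and 2298 with doxycycline, a value of 0.18 ± 0.07. Snrpd1, an Sm ring protein gene, had a value of 0.17 ± 0.06 (limma, adjusted p = 0.222), and Gemin7 one of -0.18 ± 0.10. Smndc1, a splicing factor related to SMN, had a value of 0.04 ± 0.07.

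Sod1 encodes the copper and zinc superoxide dismutase of the cytosol. It stood at 9451 and 8906 normalized counts in libraries 1 and 7 and at 9304 and 8789.9 in libraries 2 and 8. The groups overlapped, and libraries 7 and 8 were below 1 and 2. The means were 9179 ± 385 and 9047 ± 364 (SD, n = 2 each). The log2 change was -0.02 ± 0.06, with an interval for the fold of 0.88 to 1.10 (limma, adjusted p = 0.894), and its sign turned with quantile normalization (0.06). The difference was -0.02 both between libraries 2 and 1 and between 8 and 7. Ccs, the chaperone that loads copper into Sod1, stood at 1056 and 986 without and 890.1 and 942 with doxycycline, a value of -0.16 ± 0.09 (limma, adjusted p = 0.363). Of 13 listed genes that remove superoxide and peroxide none passed (limma), with a median of 0.09. An unadjusted p under 0.05 was found in 3 (limma), against 21.1% of all rows. The smallest p-values were those of Prdx3 (0.25 ± 0.09), a mitochondrial peroxiredoxin, and the thioredoxin gene Txn1 (0.17 ± 0.06).

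Pfn1 encodes profilin, which binds actin monomers and feeds them to growing filaments. Its counts were 11683 and 12538 without and 11105 and 12909 with doxycycline. The doxycycline libraries were the lowest and the highest of the 4, and libraries 7 and 8 were above 1 and 2. The means were 12110.3 ± 604 and 12007 ± 1276 (SD, n = 2 each). The log2 change was -0.02 ± 0.09, with an interval for the fold of 0.85 to 1.15 (limma, adjusted p = 0.943), and its sign turned with quantile normalization (0.01). Pfn2, the profilin enriched in neurons, had a value of -0.12 ± 0.08, from 4171 and 3949 to 3925 and 3534 (limma, adjusted p = 0.422). Among 17 listed genes of actin turnover 7 had an unadjusted p under 0.05 (limma, 21.1% of all rows did). Their median change over the 17 was -0.12, and 1 fell (1.79% of all rows did). It was Tmsb10, which encodes an actin-sequestering thymosin, at 16072 and 15448 without and 12373 and 11634 with doxycycline (-0.39 ± 0.06; limma, adjusted p = 0.043). Its call was lost without library 1, 2 or 8, with quantile normalization and without the intensity trend.

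Of a list of 41 other genes of motor neuron disease, 35 were in the table. Of these 3 fell (1.79% of all rows did) and none rose. At an unadjusted p under 0.05, 9 differed (limma, 21.1% of all rows did). Their median of -0.01 was close to that of the 7 members, but their spread was wider. Values ran from -1.57 to 0.54, with a median size of 0.10 against 0.06 in the 7. Prph, the intermediate filament peripherin and also a marker of motor neurons, fell from 1562 and 1793 to 527 and 599.8 (-1.57 ± 0.11; limma, adjusted p = 0.00832). Kif5a, a kinesin that carries cargo along neuronal axons, fell from 7331 and 6495 to 4288 and 3766 (-0.78 ± 0.09; limma, adjusted p = 0.025). Dctn1, the largest subunit of the dynein activator dynactin, fell from 10195 and 9427 to 7384 and 7596 (-0.39 ± 0.07; limma, adjusted p = 0.0486). Prph also counts among the motor neuron markers above, whose summed level was lower in the same libraries. The call of Prph stood without any single library, that of Kif5a was lost without library 8, and that of Dctn1 without library 1, 2 or 8. Both of the latter were also lost without the intensity trend, and that of Dctn1 with quantile normalization. Nefh, the heavy neurofilament gene, was chosen here after its values were seen, and at -0.83 ± 0.24 it missed the threshold (limma, adjusted p = 0.137). The RNA-binding and quality control genes of that list, chosen in the same way, had values near those of the 8. They were Hnrnpa1 (0.07 ± 0.06), Matr3 (0.02 ± 0.06), Tbk1 (-0.01 ± 0.08), Optn (0.05 ± 0.10) and Sqstm1 (-0.12 ± 0.09).

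**Figure D2:**
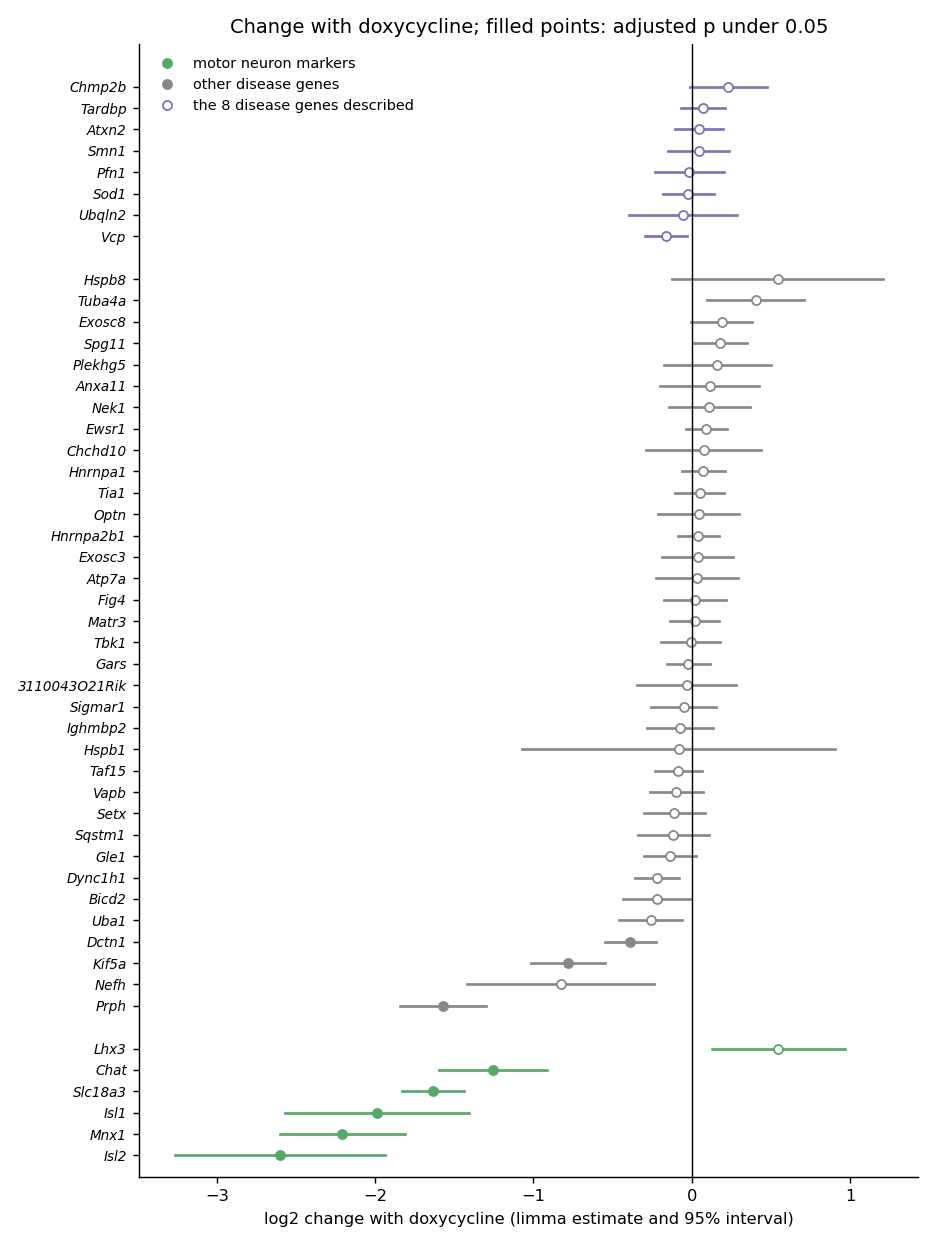
Log2 change with doxycycline (horizontal axis) with its 95% interval for the 8 disease genes, 35 other listed disease genes and 6 motor neuron markers, with Prph among the disease genes. Filled points passed the test. The 8 lie between -0.16 and 0.23 and are all open, while Prph, Kif5a and Dctn1 are filled and below 0, beside 5 of the 6 markers.

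Several members were split by column number. Libraries 7 and 8 did not overlap 1 and 2 in 3 of the 7 members, where 32.6% of all rows were so split. The difference on the log2 scale was 0.30 in Ubqln2, 0.16 in Pfn1 and -0.08 in Sod1. It was 0.12 or less in size in Chmp2b, Tardbp, Vcp and Atxn2, and 0.05 in Smn1. Some markers of other cells were split in the same way. The summed level of 6 listed endoderm and mesoderm markers was 6846 to 7989 in the libraries numbered 1 and 2 but 12435 to 12617 in 7 and 8. Gata4, an endoderm factor, stood at 4460.3 and 3382 in the former and at 7239 and 6476 in the latter. Of the 6, Gata4, Gata6, Foxa2 and Sox17 were higher in both of the latter, whereas the collagen genes Col1a1 and Col1a2 overlapped. The summed level of 5 pluripotency markers was 1674 to 1890.1 in the former and 789 to 944 in the latter. Their part in the spread of Ubqln2, Pfn1 and Sod1 was not tested. The labels do not say what the column numbers stand for.

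**Figure D3:**
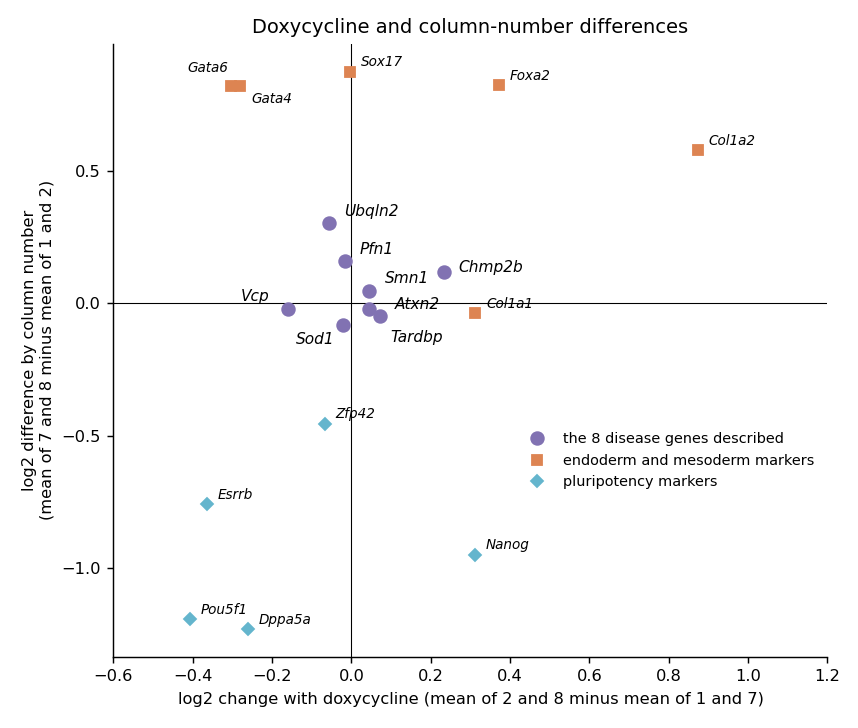
Log2 change with doxycycline (horizontal axis) against the log2 difference of libraries 7 and 8 from 1 and 2 (vertical axis) for the 8 disease genes and for markers of endoderm, mesoderm and pluripotency. Each point is 1 gene. Ubqln2, at 0.30 on the vertical axis, is farther from 0 along the column numbers than along doxycycline, and Vcp and Chmp2b are farther along doxycycline.

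Per transcript length the members fell into high and low levels. Normalized counts per 1000 bases of the GENCODE M21 transcript linked to the row's accession, averaged over the 4 libraries, were 14217 for Sod1, 14005 for Pfn1, 7644 for Vcp, 1302 for Ubqln2, 1129 for Smn1, 856 for Atxn2 and 479.8 for Chmp2b. Over the 4 libraries Sod1 ranged from 13713 to 14745 and Pfn1 from 12897 to 14993, so this neighbouring pair did not differ beyond its spread. The ranges of Ubqln2 (1131 to 1449.7) and Smn1 (1101 to 1193) overlapped as well, although Ubqln2 was the higher in each library. The ranges of the other neighbours did not overlap. Tardbp has linked transcripts of 1904 to 7477 bases, and its level was 1849.9 to 7264 per 1000 bases depending on the one taken, so it has no fixed place in the order. Each of the others had 1 linked length, on which its place rests, and other isoforms were not considered. The Smn1 row joins more than 1 RefSeq transcript, yet 1 length was linked, 1222 bases.

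Likeness to other genes was measured as the distance between log2 levels centred on each gene's mean over the 4 libraries. With so few libraries many genes were alike. Within a distance of 0.1 lay 12.51% of other rows for Sod1, 11.59% for Atxn2, 11.37% for Tardbp, 7.55% for Smn1, 6.27% for Vcp, 3.21% for Pfn1, 2.87% for Chmp2b and 0.61% for Ubqln2. These distances carry no statement on function. The nearest genes were Tspan33 and Pef1 to Sod1, Abcb8 and Fryl to Atxn2, Guk1 and H3f3a to Tardbp, and Tgfbi and Tsen34 to Smn1. They were Dcp1b and Gosr2 to Vcp, Usp36 and Ogdh to Pfn1, Shcbp1 and Bnip3l to Chmp2b, and Ctdspl and Neurl1a to Ubqln2, all at distances of 0.007 to 0.025.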

How the data were processed

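RNA was measured in 4 libraries, 2 per group, made from total RNA with the Illumina TruSeq protocol per the labels' protocols. CASAVA, TopHat2, HTSeq, DESeq and mm9 are listed, per the submitters' processing notes, without versions, roles or order. The deposited table holds a signal per row, normalized read counts with 2 decimals. In each column 100.0% of values lay within 0.1 of a whole multiple of 1 step, read here as 1 read, which gave 22434755 to 30235763 estimated reads per library (normalized totals 26449555 to 27047458). Read numbers are estimates, their totals cover the listed rows only, and no count model was fitted. Counting error covers sampling of reads only. Column initials gave each column its group. Column numbers are not the labels' replicate numbers.

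Symbols came from the table for 11335 rows and by RefSeq accession (GRCm38.p6) for 375. Values were analysed as log2(count + 1) with the authors' scaling, so changes of low genes are understated. A minimum mean of 10 removed no row. The lowest mean of any row was 40.1, so shares of all rows hold for genes of at least that level. All 11747 rows were fitted with limma 3.58.1 in R 4.3.3 (intensity trend, two-sided, Benjamini-Hochberg, threshold 0.05), with 2 residual and 3.832 prior degrees of freedom. The fit was tested on simulated data. With 2 libraries a group, the smallest p of an exact permutation test is 0.333. Tried besides were pseudocounts of 0.5 and 5, dropping the filter, raising the minimum mean to 50, quantile and TMM scaling (trims 0.3 and 0.05), robust and untrended variances, a block by column number and each library left out.

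Members and gene lists were chosen with earlier results of these data known. An item of these lists is not reported here and was left out of their counts. Some genes stand in more than 1 list, among them Prph, Hnrnpa1, Matr3 and several relatives of the members. The rule for named genes took the members, their relatives, up to 4 passing genes of each list by smallest p, or the 2 smallest where none passed, and the 2 nearest genes of each member. Not every gene it took is printed, and other genes printed were chosen after their values were seen. Lengths come from GENCODE M21 and promoter windows from RefSeq on GRCm38.p6, which held 9 windows of 7 of the 8 genes. The sources used here do not say how strand or multiply mapped reads were treated. Scaf4 overlaps Sod1, Masp2 overlaps Tardbp, 1700022I11Rik overlaps Vcp, and Sh2b3 and Gm16552 overlap Atxn2 on the opposite strand in GENCODE M21. Reads from such overlaps cannot be told apart without strand. Gm43571 and Gm42866 overlap Atxn2 on the same strand, where strand does not separate reads. Python 3.11.15, pandas 2.3.3, numpy 2.4.6 and matplotlib 3.10.9 were used.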

Additional observations from a re-analysis of the deposited data

How the results depend on the processing

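The count of passing members stayed at 0 in all settings run, each library left out included, except with a replicate block by column number. That block called 2 members, Chmp2b higher (1) and Vcp lower (1), with limma adjusted p = 0.0245 and 0.0044, and 3508 of all genes (1636 higher, 1872 lower), or 29.9%, against 278 (68 and 210). It leaves 1 residual degree of freedom, and limma then estimated an unlimited prior, so all genes shared 1 variance trend. The deviations of libraries 1 and 2 correlated at 0.63 over genes, but the labels do not say that column numbers pair libraries. Over all genes 105 passed without the trend (27 higher, 78 lower) and 419 with robust variances (132 higher, against 68). Leaving out a library gave 44 to 494 calls, 2 to 156 higher and 42 to 338 lower. Each such fit has a lone library that is assumed to vary like the others. Among 49 genes followed through each setting, directions turned for 3 with quantile normalization, to 0.06 for Sod1, 0.01 for Pfn1 and 0.02 for Ubqln1. With each library left out the log2 change ran from -0.06 to 0.02 for Sod1, -0.12 to 0.09 for Pfn1, -0.22 to 0.11 for Ubqln2, -0.01 to 0.10 for Smn1, -0.08 to 0.001 for Ubqln1, -0.83 to 0.11 for Esrrb and -1.04 to 0.22 for Pou5f1. The cause was not tested. Counting error of the members was at most 3.52% in any library.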

Other observations

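Some disease genes outside the set of 8 had wide spreads. Hspb1, a small heat shock protein gene of inherited motor neuropathy, stood at 1284 and 1022 normalized counts in libraries 1 and 2 and at 573 and 642 in 7 and 8. Its log2 difference by column number was -0.92, and that with doxycycline was -0.08 ± 0.40 (limma, adjusted p = 0.934). Hspb8, a partner of Hspb1, was at 210.0 and 169.6 without and 357 and 213 with doxycycline, with a log2 change of 0.54 ± 0.27 (limma, adjusted p = 0.316) and a difference by column number of -0.53. Tuba4a, an alpha-tubulin gene, had groups that lay apart, at 284 and 291 without and 356 and 408 with doxycycline, and its change of 0.40 ± 0.13 missed the threshold (limma, adjusted p = 0.155). These 3 genes were chosen after their values were seen.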
